A study of Equus caballus with 78 samples.

Results

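The microRNAs eca-miR-25, eca-miR-92a and eca-miR-363 of the horse belong to the miR-25/92a family, whose members share a seed, the short stretch near the 5′ end that pairs with target messenger RNAs. They were taken by name from the deposited count files, and they are 3 of 690 microRNA names listed there and of 270 names with a read in some library. Small RNA was sequenced from extracellular vesicles, small membrane sacs shed by cells into body fluids, in a horse model of osteoarthritis (OA). Plasma gave 26 libraries, synovial fluid of the joint labelled OA gave 26, and synovial fluid of the joint labelled CTRL gave 26, all from horses 2, 4, 6 and 8. The labels name 7 time points (0, 10, 35, 42, 49, 56 and 63) with no unit, and each fluid and time point has 3 or 4 horses, since the libraries analysed here include none of horse 4 at 10 and none of horse 2 at 63. The labels give neither the age, sex or breed of the horses nor the way in which the disease was induced. They also give no treatment for the CTRL joint, and both joints belong to the same horses.

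MicroRNAs that share a seed can repress overlapping sets of messenger RNAs. In human and mouse, miR-25 is made from an intron of the MCM7 gene together with miR-106b and miR-93. In the same species miR-92a comes from the miR-17-92 cluster and from the X-linked miR-106a-363 cluster, which also holds miR-363. The family is known for its abundance in blood cells, red cells among them, and miR-92a is a long-studied regulator of endothelial cells. In human chondrocytes miR-92a has been reported to target aggrecanase transcripts, the messenger RNAs of enzymes that break down cartilage matrix. The family relatives miR-92b, miR-32 and miR-367 were added from background knowledge.

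Levels are given as CPM, the reads of a microRNA after the microRNA reads of every library are scaled to the same sum. MicroRNA reads per library had a median of 14055 in plasma, 42865.5 in OA joint fluid and 26141 in CTRL joint fluid, over a range of 3916 to 1865513. A single read was therefore worth 71.1 CPM in plasma, 23.3 CPM in OA joint fluid and 38.3 CPM in CTRL joint fluid at the median depth. In plasma, 3 libraries rich in microRNA (horse 2 at time point 0, horse 6 at 10 and horse 8 at 63) held 84.1% of all microRNA reads. A number in the names of the deposited files was taken as the sequencing lane, which the labels do not state. By this reading all 26 plasma libraries were in lane 1, against 2 OA joint and 8 CTRL joint libraries. For most libraries lane and fluid therefore cannot be told apart. The summed level of 4 erythrocyte microRNAs had a median of 40.33% of microRNA reads in plasma, 6.63% in OA joint fluid and 8.7% in CTRL joint fluid. Of these, miR-486-5p alone had a median of 36.766% in plasma, against 5.432% in the CTRL joint without horse 2 at time point 49. For miR-451 these medians were 1.358% and 1.609%, and for miR-144 and miR-486-3p they were 0. The summed level of 6 fibroblast and mesenchymal microRNAs had a median of 2.1% in plasma, 14.27% in OA joint fluid and 13.97% in CTRL joint fluid. The 2 chondrocyte arms of miR-140 had a median of at most 0.01% in each. CPM is a share, so fewer vesicles that carry a microRNA and less of it per vesicle cannot be told apart.

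The member with the highest level was miR-92a, which was read in 78 of 78 libraries. Its lowest, median and highest levels were 287.7, 42299 and 120964 CPM in plasma. They were 4314, 24059 and 64198 CPM in the OA joint and 12622, 36787 and 152917 CPM in the CTRL joint. By the mean CPM over the libraries of a fluid it was the microRNA of rank 3 in plasma, 8 in OA joint fluid and 8 in CTRL joint fluid. Its mean of horse means was 38121 ± 19119 CPM in plasma, 27342 ± 5160 CPM in OA joint fluid and 42258 ± 7479 CPM in CTRL joint fluid (SD, n = 4 horses each). The mean ± SD range of plasma overlapped with those of both joints, while the ranges of the OA and CTRL joints did not overlap each other. These means take in time point 0 and the CTRL joint library of horse 2 at time point 49, at 152917 CPM. On reads summed per horse the ranges of the joints did overlap, at 26085 ± 6574 CPM (OA) and 52248 ± 25615 CPM (CTRL). How many other microRNAs lay apart between the joints was not counted.

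The second member, miR-25, was read at lower levels and far less evenly. Its lowest, median and highest levels were 0, 2807 and 24601 CPM in plasma, 75.9, 8897 and 48869.8 CPM in the OA joint, and 66.8, 11048 and 85528 CPM in the CTRL joint. By the mean CPM over libraries it had rank 29, 17 and 13 in plasma, the OA joint and the CTRL joint. The mean of horse means was 6372 ± 4625 CPM in plasma, 12401 ± 6410.0 CPM in OA joint fluid and 19679.9 ± 4961 CPM in CTRL joint fluid (SD, n = 4 horses each). In this order of levels, the mean ± SD range of the OA joint overlapped with those of plasma and of the CTRL joint, and the ranges of plasma and the CTRL joint lay apart. How many other microRNAs lay apart in this way was not counted.

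**Figure D1:**
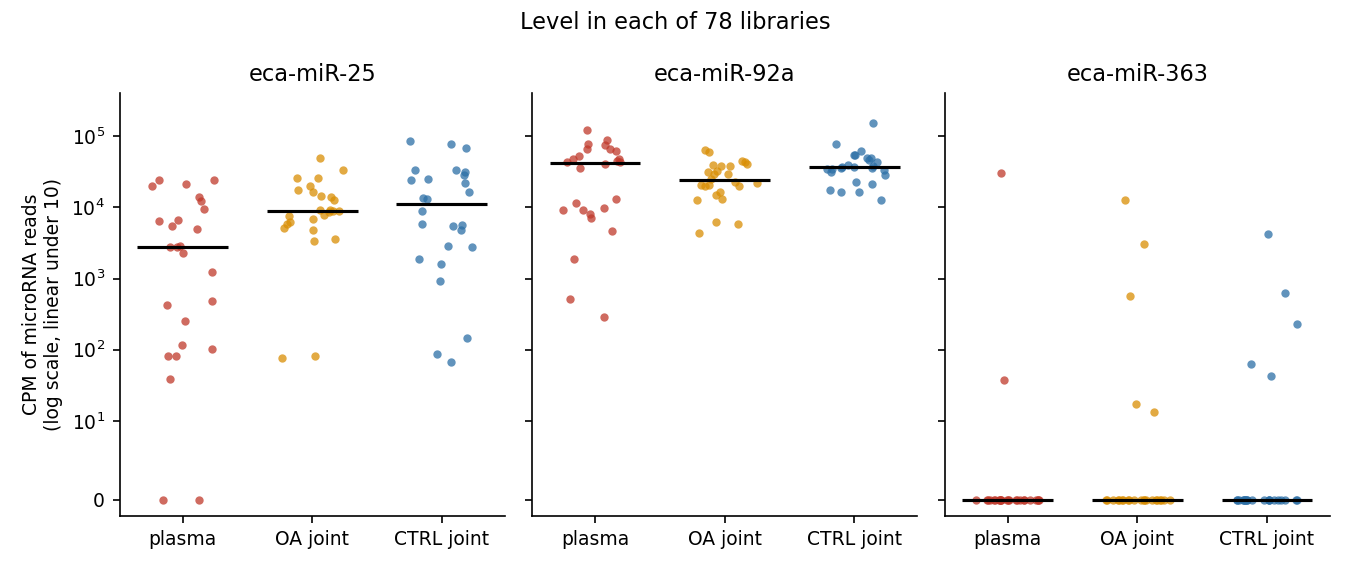
Level of the 3 members in CPM of microRNA reads (log axis, linear under 10) in every library of plasma, the OA joint and the CTRL joint. Each point is a library and each bar the median of 26 libraries. The points of miR-92a form a single band in both joints, those of miR-25 leave a gap above 0, and those of miR-363 lie at 0 except in 12 libraries.

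The third member, miR-363, was at 0 reads in 66 of 78 libraries. It had a read in 2 plasma, 5 OA joint and 5 CTRL joint libraries, with 2137 reads in all. In plasma it had 226 reads (30849 CPM) in horse 8 at time point 35 and 69 reads (37.0 CPM) in the rich library of horse 8 at time point 63. In the OA joint it had 536 reads (12577 CPM) in horse 8 at time point 0, 190 reads (3075 CPM) in horse 6 at 63 and 45 reads (561.9 CPM) in horse 2 at 56, and 1 read in each of 2 further libraries. In the CTRL joint it had 1032 reads (4295 CPM) in horse 2 at time point 49 and 33 reads (622.7 CPM) in horse 6 at 10, and 1 or 2 reads in the other 3. A level of miR-363 thus rests on 1 library in each fluid: the top library held 76.6% of its reads in plasma, 69.3% in OA joint fluid and 96.5% in CTRL joint fluid.

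Of the relatives outside the 3 members, miR-92b was read in 48 of 78 libraries: 13 of plasma, 22 of the OA joint and 13 of the CTRL joint. Its mean of horse means was 2175 ± 2057 CPM in plasma, 2731 ± 1303 CPM in OA joint fluid and 2102 ± 1826 CPM in CTRL joint fluid (SD, n = 4 horses each). These means differed by less than their spread, and the OA joint libraries, where it was read most often, were also the deepest at the median. The names miR-32 and miR-367 were at 0 of 5641465 microRNA reads, which allows a level of up to 0.532 CPM (3 counts of the total, counting error only). How reads shared by near-identical microRNAs such as miR-92a and miR-92b were assigned is not given in the sources used here, so their split is uncertain.

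The family took a median of 4.51% of microRNA reads in plasma, 3.57% in OA joint fluid and 5.13% in CTRL joint fluid. Its share ranged over 0.052% to 12.1%, 0.592% to 11.02% and 1.356% to 23.47% of the reads of a library in the same order. Within the family, miR-92a made up a median of 88.6% of the reads in plasma, 69.0% in OA joint fluid and 78.2% in CTRL joint fluid. It exceeded miR-25 in 23 of 26 plasma, 24 of 26 OA joint and 24 of 26 CTRL joint libraries. Efficiency of adapter ligation can differ between microRNA sequences, so a ratio of reads between members is not a ratio of molecules.

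Summed per horse, miR-92a had 6.31, 3.32, 1.87 and 2.34 reads for each read of miR-25 in plasma of horses 2, 4, 6 and 8. The ratios were 3.26, 1.82, 3.32 and 1.71 in the OA joint and 1.99, 2.87, 1.53 and 1.80 in the CTRL joint. Every horse had more miR-92a than miR-25 in each fluid, and the ranges of the 3 fluids overlapped.

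The unevenness of miR-25 was of a particular form. It had 4 or fewer reads in 15 of 78 libraries, 10 of plasma, 2 of the OA joint and 3 of the CTRL joint, and 2 of the plasma libraries were at 0. The other 63 libraries began at 18 reads and had a median of 316, so no library lay between. In the 15 libraries miR-92a had 2 to 2034 reads with a median of 444, and over 100 reads in 12 of them. Their microRNA reads had a median of 13070 (3916 to 48496), against 42232 in the other 63 libraries. In synovial fluid such libraries made up 2 of 10 in lane 1 and 3 of 42 in lane 2. The part of depth and lane in this pattern was not tested.

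Single libraries show how far the members could part. Plasma of horse 4 at time point 56 had 1581 reads of miR-92a (120964 CPM, the highest plasma level) and 0 of miR-25, which at that depth allows up to 3 reads. In plasma of horse 8 at time point 42, miR-92a had 2034 reads and miR-25 had 1. At time point 35 the CTRL joint of horse 8 had 1584 reads of miR-92a and 3 of miR-25. The opposite also occurred: plasma of horse 6 at time point 42 had 150 reads of miR-92a and 968 of miR-25, and the OA joint of horse 8 at time point 56 had 186 and 330. These libraries were chosen after their values were seen.

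**Figure D2:**
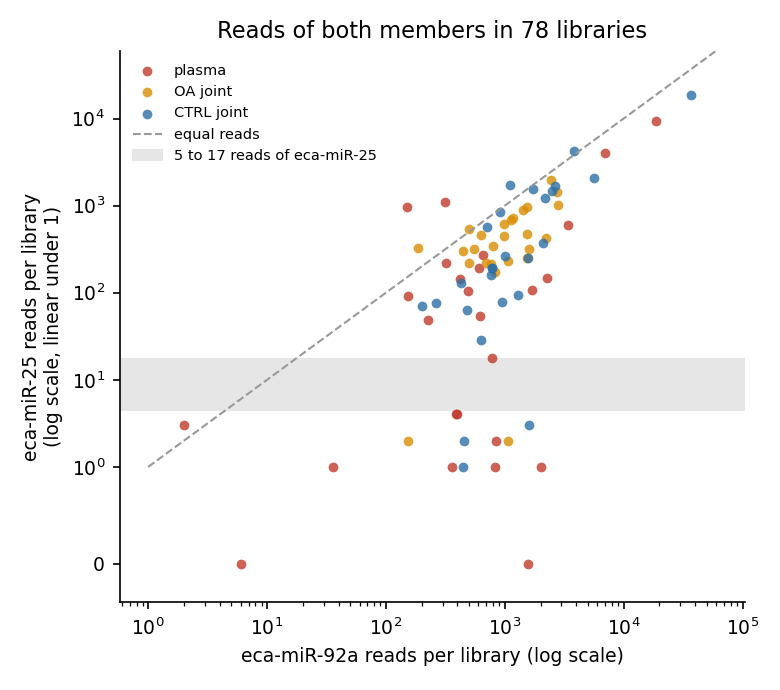
Reads of miR-25 (vertical, log axis, linear under 1) against reads of miR-92a (horizontal, log axis) in each of 78 libraries of plasma, the OA joint and the CTRL joint. Most points lie below the dashed line of equal reads, and the 15 libraries with 4 or fewer reads of miR-25 lie under the grey band, which holds no point, over a wide range of miR-92a reads.

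In synovial fluid the levels of miR-25 and miR-92a moved together from library to library (Spearman rho = 0.60 over 52 libraries), and in plasma they did not (rho = -0.03 over 26 libraries). In 10 of the 26 plasma libraries miR-25 had 4 or fewer reads, against 2 OA joint and 3 CTRL joint libraries. Its plasma ranks thus rest in part on steps of 1 read, and the part of this in the contrast of fluids was not tested. Among 64 features read in at least 50% of the synovial libraries, the most like miR-25 were miR-215 (rho = 0.71), a microRNA known from liver and gut, the erythroid miR-451 (0.65) and miR-92a (0.60). The most like miR-92a there were miR-25 (0.60), miR-451 (0.58) and miR-215 (0.53). Over all features the median rho was 0.02 with miR-25 and -0.03 with miR-92a. With the OA joint alone rho of miR-25 with miR-92a was 0.54, and with the CTRL joint alone it was 0.68. The other likenesses varied more by joint. In the OA and CTRL joint alone, rho of miR-25 was 0.49 and 0.79 with miR-215, and 0.79 and 0.54 with miR-451. That of miR-92a was 0.29 and 0.75 with miR-215, and 0.66 and 0.47 with miR-451. In plasma, among 62 features, miR-25 was most like miR-192 (0.52), miR-148a (0.48) and let-7e (0.46), and miR-92a was most like let-7c (0.55), miR-186 (0.42) and let-7a (0.39). These values describe libraries that share horses and lanes and are each scaled to the same sum, and no test was made of them.

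Plasma was compared with the CTRL joint on reads summed over the libraries of each horse. In plasma miR-25 had 2430.3, 13966, 6858 and 4948 CPM in horses 2, 4, 6 and 8, against 44484, 17961, 23756 and 18003 CPM in the CTRL joint. The plasma sum was lower in 4 of 4 horses, and the fluids did not overlap. How many of the 126 features tested also separated the fluids was not counted. The fall of miR-25 passed the test (log2 fold change -1.90, SE 0.53, edgeR adjusted p = 0.019), as did 21.4% of 126 features tested, which had a median log2 fold of -0.16. With RLE scaling that median was -0.02, and miR-25 was still called lower.

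The call of miR-25 rests on few libraries. The CTRL joint library of horse 2 at time point 49 held 51.9% of all CTRL joint reads of miR-25, and without that time point the horse 2 sum was 13102 CPM in the CTRL joint, below the plasma sum of horse 4. The log2 fold was then -1.17 (SE 0.48, edgeR adjusted p = 0.107), with plasma still lower in 4 of 4 horses. The call was also lost without horse 2 (-0.98), without horse 6 (-1.60), without horse 8 (-1.97) and without the 3 rich plasma libraries (-1.64). Those 3 libraries held 80.2% of the plasma reads of miR-25. Over 15 settings the adjusted p ranged over 0.000542 to 0.879. Within lane 1 alone the fold was 0.51 (SE 1.48). The CTRL joint had no library of horse 8 in that lane, so horse 8 was left out. Horses 2 and 4 had only their CTRL joint library of time point 56 there, with 29 and 2 reads of miR-25. Plasma entered with all its time points, so the time points were not matched. At time point 0 alone the fold was -1.67 (SE 1.34, edgeR adjusted p = 0.876).

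For miR-92a the plasma sums were 15342, 46319.5, 12839 and 11579.5 CPM in horses 2, 4, 6 and 8, against 88623, 51554, 36419.8 and 32394 CPM in the CTRL joint. Plasma was lower in 4 of 4 horses, but horse 4 was high in plasma, above 2 of the CTRL joint sums. The difference did not pass (log2 fold -1.30, SE 0.51, edgeR adjusted p = 0.0972). Its sign changed with the rich libraries, which held 65.5% of the plasma reads of miR-92a at 9941 to 13110.0 CPM, against a median of 44074 CPM in the other 23 plasma libraries. Without them the log2 fold was 0.03 (SE 0.56), and at time point 0 alone it was 1.48 (SE 0.70). Those 3 libraries also stood apart in marker levels, with 0.06% to 4.63% of their microRNA reads from the erythrocyte list and 19.33% to 22.45% from the platelet list, and the part of this in the result was not tested. The third member, miR-363, was too rarely read to be tested between plasma and the CTRL joint.

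**Figure D3:**
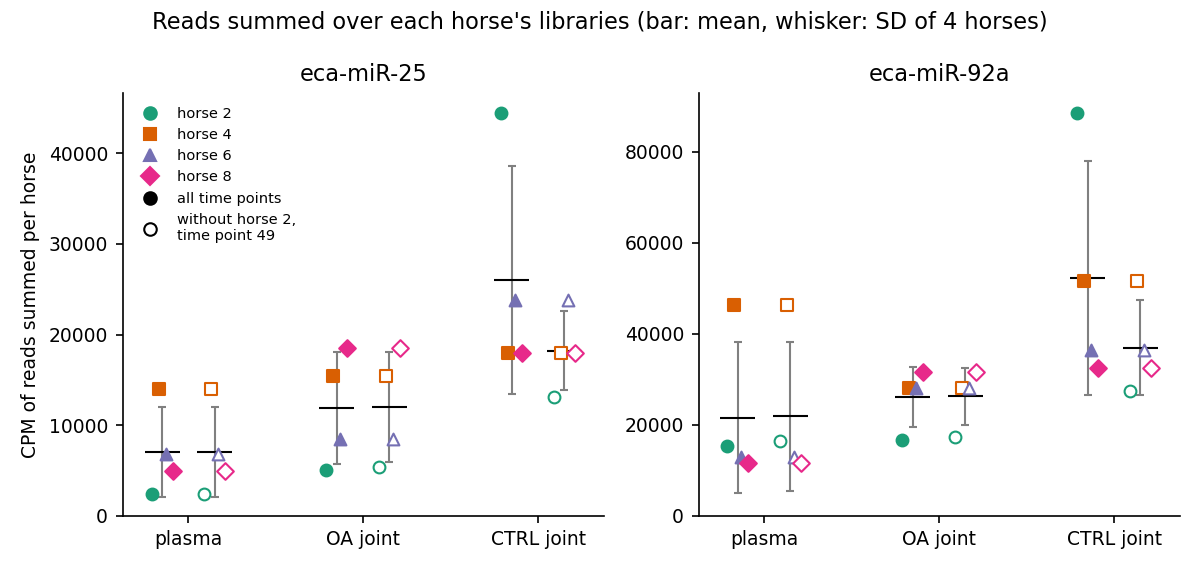
CPM of reads summed over the libraries of each horse, for miR-25 and miR-92a in plasma, the OA joint and the CTRL joint. Filled symbols use all time points and open symbols leave out horse 2 at time point 49. Bars are means and whiskers are SD of 4 horses. Horse 2 is highest in the CTRL joint with all time points and lowest there without time point 49, while horse 4 is highest in plasma.

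No member passed the test between plasma and the OA joint. In plasma miR-25 had 2430.3, 13966, 6858 and 4948 CPM in horses 2, 4, 6 and 8, against 5083, 15391, 8484 and 18548 CPM in the OA joint. Plasma was lower in 4 of 4 horses, with overlapping ranges, and the log2 fold was -0.18 (SE 0.52, edgeR adjusted p = 0.938). For miR-92a the plasma sums given above stood against 16556, 28005, 28127.5 and 31653 CPM in the OA joint. Plasma was lower in 3 horses and higher in horse 4, and the log2 fold was 0.26 (SE 0.47, edgeR adjusted p = 0.856). For miR-363 it was -3.40 (SE 2.61, edgeR adjusted p = 0.446). Of 126 features tested, 24.6% were called.

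The sign of the fold of miR-92a changed without scaling, while miR-25 and miR-363 kept theirs with TMM, RLE and no scaling in edgeR. The sign of miR-92a also turned with horse as a block, in limma and among the fits that left out a horse. The median log2 fold of all features was 0.11 with TMM scaling and -0.30 with none, and without scaling miR-92a stood at -0.27. Where every library had equal weight (limma on the mean log2 CPM of each horse), miR-25 was called lower in plasma (log2 fold -2.32, SE 0.60, limma adjusted p = 0.0108; range over 13 settings 0.0108 to 0.989). That mean takes in the 10 plasma libraries with 4 or fewer reads of miR-25, which add little to a sum of reads. By limma 39 of 126 features tested were called in this comparison.

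The OA joint was then set against the CTRL joint on reads summed over the time points after 0. In the OA joint miR-25 had 5475.5, 14796, 8717 and 16451 CPM in horses 2, 4, 6 and 8, against 46078, 19019, 26948.5 and 16679 CPM in the CTRL joint. Every horse was lower in its OA joint and the sums did not overlap, but the gap was wide in horse 2 and narrow in horse 8. The log2 fold of -1.35 (SE 0.39) did not pass (edgeR adjusted p = 0.123). With horse as a block, which fits the pairs of joints, it was -1.24 (SE 0.37) and passed (edgeR adjusted p = 0.0411; range over 13 settings 0.00209 to 0.991).

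The same held in part for miR-92a. Its OA joint sums were 14435, 27605, 28012 and 27061 CPM in horses 2, 4, 6 and 8, against 90932, 54359.7, 37894 and 32055 CPM in the CTRL joint. All 4 horses were lower in the OA joint, and the sums did not overlap. How many of the 117 features tested also separated the joints was not counted, so the separation of either member cannot be weighed against the rest. The log2 fold of -1.22 (SE 0.36) did not pass (edgeR adjusted p = 0.123), nor did it with horse as a block (-1.05, SE 0.36). For miR-363 the log2 fold was -1.62 (SE 2.43, edgeR adjusted p = 0.945). Of 117 features tested 0% were called by edgeR, 10 had an unadjusted p under 0.05, and DESeq2 called 4, with miR-25 (-1.28, DESeq2 adjusted p = 0.0247) and miR-92a (-1.17, DESeq2 adjusted p = 0.00785) among them.

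At time point 49 the CTRL joint of horse 2 carried much of both differences. In that library miR-92a took 15.29% of microRNA reads and miR-25 took 7.75%. Without horse 2 at time point 49 the CTRL joint sums of this horse were 13480 CPM for miR-25 and 26623 CPM for miR-92a, and the joints overlapped. The OA joint was still lower in 4 of 4 horses for each member, with log2 folds of -0.80 for miR-25 and -0.68 for miR-92a (edgeR adjusted p = 0.344 for each). In the same library the erythrocyte list made up 13.42% of microRNA reads, inside the range of the other 25 CTRL joint libraries (3.0% to 18.96%, median 8.18%). Of its 4 members, the erythroid miR-451 was at 8.9% against a highest value of 5.27% in the others. The other members were inside the others' range, with miR-486-5p at 4.318% against a median of 5.432%, miR-144 at 0.205% against a highest value of 0.794%, and miR-486-3p at 0. The leukocyte and the fibroblast and mesenchymal lists were outside the range of the others. The leukocyte list was at 3.94% against a highest value of 2.56% in the others, and the fibroblast and mesenchymal list at 1.68% against a lowest value of 5.3%. The part of blood-cell material in these folds was not tested.

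In lane 2 alone the folds were -1.89 for miR-25 and -1.27 for miR-92a. Horse 6 entered the CTRL joint there only with time point 35, where its 85528 CPM of miR-25 was the highest of 78 libraries. With equal weight for every library (limma), the fold of miR-92a was still negative, while that of miR-25 turned to 0.31 (SE 0.45).

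**Figure D4:**
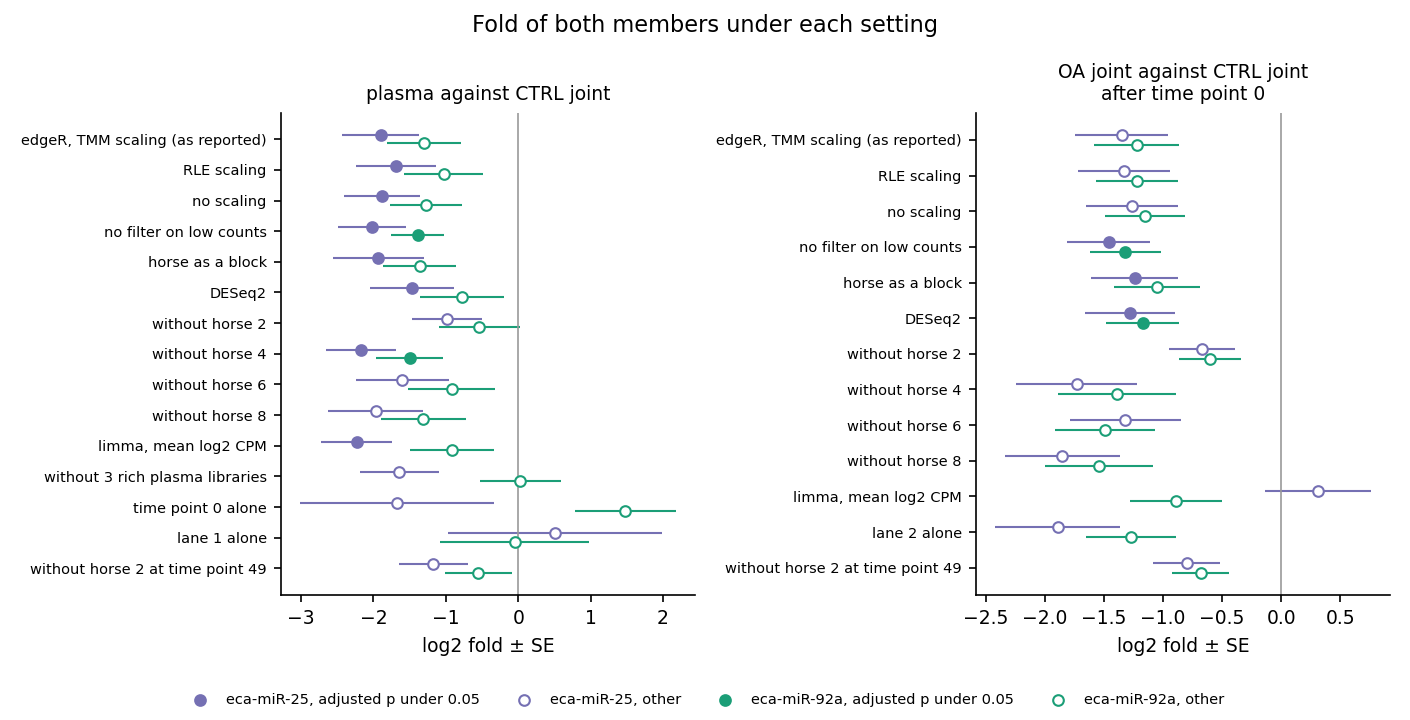
log2 fold ± SE of miR-25 and miR-92a for plasma against the CTRL joint and for the OA joint against the CTRL joint after time point 0, under each setting listed at the left. Filled points have an adjusted p under 0.05. Nearly all points lie below 0, and leaving out horse 2, or horse 2 at time point 49 alone, moves both members towards 0 in both comparisons.

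The joints were also compared at each time point, with values below in the order of horses 2, 4, 6 and 8 (2, 6 and 8 at time point 10, and 4, 6 and 8 at 63). The share of 139 features called was 0% at every time point except 35, where it was 0.719%, and no member was among them. At an unadjusted p under 0.05 were 3 to 24 features per time point, and DESeq2 called 8 to 21. At time point 0 miR-92a had 43611, 29609.8, 29241 and 64198 CPM in the OA joint, against 37165, 16500.0, 28132 and 36409.6 CPM in the CTRL joint. All 4 horses were higher in the OA joint at this first time point, with a log2 fold of 0.44 (SE 0.65) and overlapping ranges. For miR-25 the values were 81.7, 17781.5, 6225 and 33413 CPM in the OA joint, against 8972, 4750.0, 5809 and 33679.9 CPM in the CTRL joint. Horse 2 was very low in the OA joint, with 2 reads, and the log2 fold was -0.05 (SE 1.12).

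At time point 10 miR-92a had 22040.3, 31168 and 59853 CPM in the OA joint, against 38522, 50210.4 and 62798 CPM in the CTRL joint. At the same time point miR-25 had 4783, 5921.5 and 48869.8 CPM in the OA joint, against 22275, 31360.3 and 68788 CPM in the CTRL joint. All 3 horses were lower in the OA joint for both members, horse 8 was the highest in each joint, and the joints overlapped. The log2 folds were -0.38 (SE 0.75) for miR-92a and -1.0 (SE 1.30) for miR-25.

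At time point 35 miR-92a had 12678, 20694, 44539 and 5841 CPM in the OA joint, against 12622, 49351, 54890.1 and 35258 CPM in the CTRL joint. For miR-25 the values were 9304, 9152, 8824 and 75.9 CPM in the OA joint, against 933.1, 13124, 85528 and 66.8 CPM in the CTRL joint. Horse 8 had 2 and 3 reads of miR-25 in its OA and CTRL joint, and horse 6 had the highest level of miR-25 of all 78 libraries in its CTRL joint. The log2 folds were -0.93 (SE 0.66) for miR-92a and -1.94 (SE 1.16) for miR-25. Without horse 6 the fold of miR-25 was 0.70.

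At time point 42 miR-92a had 20495, 32169, 16575 and 23015.5 CPM in the OA joint, against 37219, 79164, 31556 and 53952 CPM in the CTRL joint. Each horse was lower in its OA joint, the ranges just overlapped, and the log2 fold was -1.22 (SE 0.66, edgeR adjusted p = 0.336). For miR-25 the values were 3367, 20348, 5138 and 14589 CPM in the OA joint, against 33174, 28950.5, 24969 and 13523 CPM in the CTRL joint. Here 3 of 4 horses were lower in the OA joint, and the log2 fold was -1.33 (SE 1.14).

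At time point 49 miR-92a had 13132, 38542, 41477 and 20213 CPM in the OA joint, against 152917, 35489, 21173 and 22665 CPM in the CTRL joint. For miR-25 the values were 3659, 25927, 25871 and 12541 CPM in the OA joint, against 77497, 5638, 2773 and 1861 CPM in the CTRL joint. Horse 2 was far above the others in the CTRL joint for both members and lowest in the OA joint for both. The log2 folds were -1.60 (SE 0.67, edgeR adjusted p = 0.281) for miR-92a and -1.09 (SE 1.13) for miR-25. Without horse 2 at this time point they were 0.10 for miR-92a and 2.43 for miR-25, since the other 3 horses all had more miR-25 in the OA joint.

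At time point 56 the members parted. For miR-25 the values were 6805, 16329, 8649.5 and 7654 CPM in the OA joint, against 1615, 148.0, 88.2 and 2871 CPM in the CTRL joint. Every OA joint library was above every CTRL joint library, with 1 read in the CTRL joint of horse 6 and 2 in that of horse 4. The share of all features that separated in this way was not counted. The log2 fold of 2.69 (SE 1.19) did not pass (edgeR adjusted p = 0.439), while DESeq2 called it (3.03, DESeq2 adjusted p = 0.0377; range over 12 settings 0.0377 to 0.69). In lane 1 were 3 of the 4 CTRL joint libraries and 0 of the OA joint libraries at this time point, and with lane as a covariate the log2 fold was 2.02 (SE 1.15).

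For miR-92a at time point 56 the values were 6193, 37817, 14972 and 4314 CPM in the OA joint, against 35261, 33740.3, 39150.0 and 16399 CPM in the CTRL joint. The OA joint was lower in 3 of 4 horses, with overlapping ranges and a log2 fold of -1.21 (SE 0.66, edgeR adjusted p = 0.439). At time point 63 miR-92a had 19708, 25103 and 38934 CPM in the OA joint, against 43104, 17661 and 46753 CPM in the CTRL joint, a log2 fold of -0.23 (SE 0.75). For miR-25 the values were 8969, 7736.5 and 14141 CPM in the OA joint, against 24013, 5431 and 16352 CPM in the CTRL joint, a log2 fold of -0.46 (SE 1.29). At this last time point both members were lower in the OA joint in horses 4 and 8 and higher in horse 6.

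**Figure D5:**
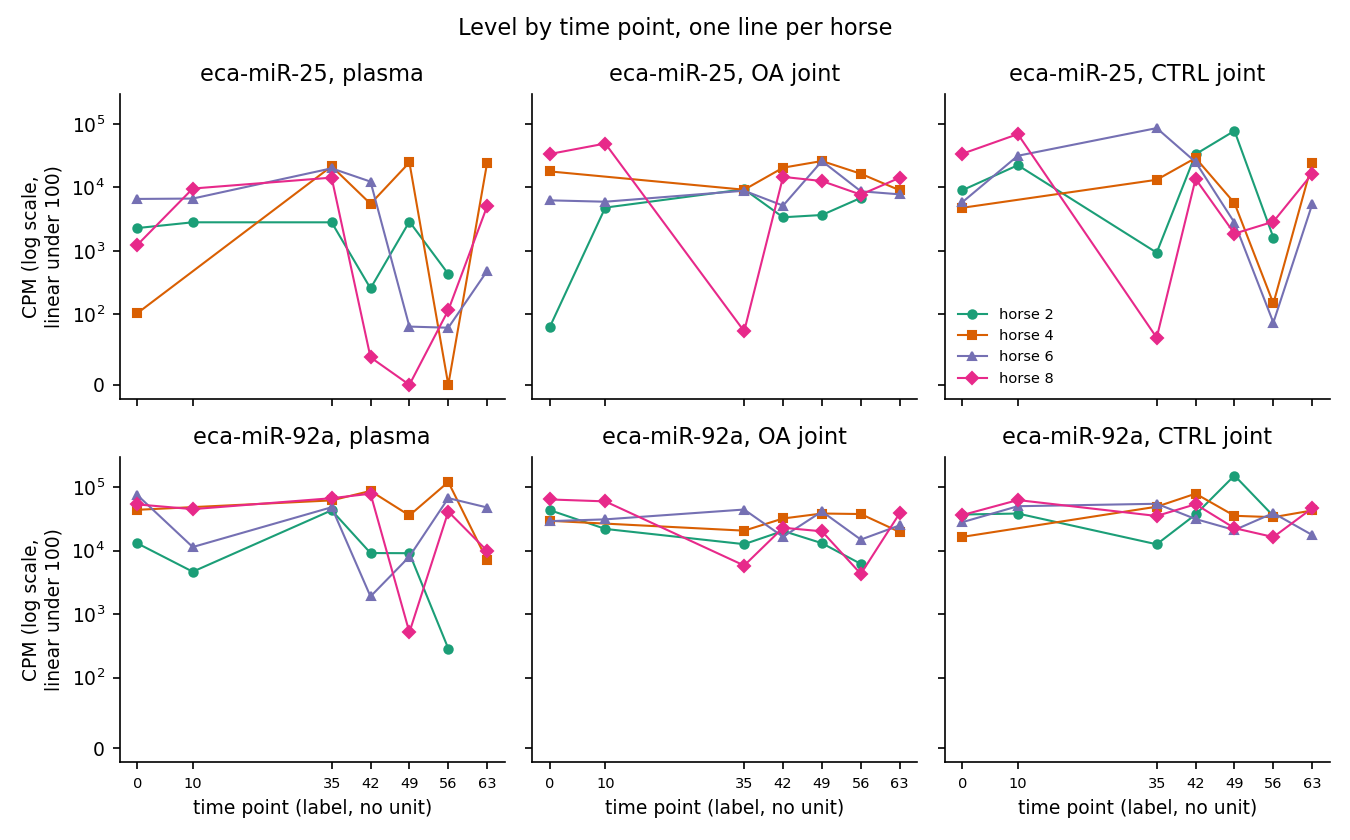
CPM of miR-25 (top) and miR-92a (bottom) by time point in plasma, the OA joint and the CTRL joint, with 1 line per horse (log axis, linear under 100). At time point 56 the plasma and CTRL joint points of miR-25 all lie below those of the OA joint, which start at 6805 CPM, and at time point 49 horse 2 stands above the other CTRL joint points of both members.

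Over time within a joint, no member passed the F-test of the later time points against time point 0 by edgeR. In the OA joint the adjusted p was 1 for miR-25, 0.851 for miR-92a and 0.0847 for miR-363, and 0% of 139 features were called, with 45 at an unadjusted p under 0.05 and 0 called by DESeq2. In the CTRL joint it was 0.147 for miR-25, 0.719 for miR-92a and 0.149 for miR-363, again with 0% of features called, 46 at an unadjusted p under 0.05 and 2 called by DESeq2. With horse as a block miR-25 passed in the CTRL joint (edgeR adjusted p = 0.0438; range over 12 settings 0.0266 to 0.412), 1 of 9 features then called. It also passed without horse 2 (edgeR adjusted p = 0.0266). On simulated data this F-test, without the block, called 24.1% of changed but also 5.11% of unchanged features, so a pass in it can be false. The widest single contrast of miR-25 was time point 56 against 0, with 1615, 148.0, 88.2 and 2871 CPM at 56 against 8972, 4750.0, 5809 and 33679.9 CPM at 0. Each of the 4 horses was lower at 56, and the groups did not overlap, though the share of all features that did so was not counted. In lane 1 were 3 of these 4 libraries at 56 and 1 of 4 at 0, and with lane as a covariate the F-test of miR-25 gave an edgeR adjusted p of 0.158.

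That contrast gave a log2 fold of -3.29 (SE 1.22) and did not pass (edgeR adjusted p = 0.248), while 0.24% of the 834 single contrasts of the CTRL joint were called and 0% of those of the OA joint. The median of all features at 56 against 0 in the CTRL joint was itself low, at -0.69 with TMM scaling, -0.98 with none and -1.10 with RLE. In the same contrast miR-92a stood at 0.32 (SE 0.65). No member passed the test of a different change over time in the joints: the interaction F-test gave an edgeR adjusted p of 0.453 for miR-25, 0.688 for miR-92a and 0.236 for miR-363, with 0.719% of features called.

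In plasma the values of miR-25 for horses 2, 4, 6 and 8 at time point 0 were 2277, 103.5, 6552 and 1230.1 CPM. They were 2808, 6638.5 and 9550.3 CPM at time point 10 (horses 2, 6 and 8), and 2806, 21413, 19886 and 14196 CPM at 35. At 35 every horse had over 100 reads of miR-25. At time point 42 they were 255.4, 5491, 12275 and 38.9 CPM, at 49 they were 2881, 24601, 82.5 and 0 CPM, and at 56 they were 431.5, 0, 80.9 and 115.7 CPM. At time point 63 horses 4, 6 and 8 had 24556, 481.6 and 5049 CPM. All 4 plasma libraries of time point 56 had 3 reads or fewer of miR-25, and horse 4 moved between 0 CPM at 56 and the 2 highest plasma levels, at 49 and 63.

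Plasma miR-92a had 13110.0, 44074, 75467 and 53646 CPM at time point 0, then 4669.8, 11425 and 45165 CPM at 10, and 43298, 62007, 48379 and 67158 CPM at 35. Later values were 9193, 87452, 1902 and 79067 CPM at 42, 9136, 35947, 8083 and 519.3 CPM at 49, 287.7, 120964, 67378.5 and 41300.3 CPM at 56, and 7038.5, 47923 and 9941 CPM at 63. At time point 35 the 4 horses lay close together, while at 42, 49 and 56 they spread widely. By the F-test over time the edgeR adjusted p was 0.451 for miR-25 and 0.725 for miR-92a, while 10.9% of 92 features were called. Of single contrasts of plasma 0% were called by edgeR, and miR-25 had its widest folds at 35 (2.99, SE 1.89) and at 56 (-2.91, SE 1.98) against 0. The median of all features at 35 against 0 was -0.29 with TMM scaling, -1.17 with none and 0.97 with RLE.

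The neighbours of the members in their clusters were largely unread. Of 10 listed neighbours, miR-106b, miR-18a, miR-18b and miR-20b were at 0 in all 78 libraries, and miR-17 had 29 reads in 2 plasma libraries. The neighbour of miR-25, miR-93, was read in 31 libraries and had a mean of horse means of 755.4 ± 1029 CPM in plasma, 573.6 ± 404.7 CPM in the OA joint and 726.3 ± 525.0 CPM in the CTRL joint (SD, n = 4 horses each). Both miR-106a (11 libraries) and miR-20a (9 libraries) were rarer still. Above a mean of 1000 CPM in some fluid were only miR-19b and miR-19a, which share the miR-17-92 cluster with miR-92a and have another seed. Read in 71 libraries, miR-19b had 7122 ± 4465 CPM in plasma, 6198 ± 1332 CPM in OA joint fluid and 11048 ± 4297 CPM in CTRL joint fluid. For miR-19a the means were 1337 ± 1555, 954.8 ± 877.0 and 3021 ± 1511 CPM in the same order.

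By test, 0 of 5 neighbours were called between plasma and the CTRL joint, with a median log2 fold of -0.76 against -0.16 over all features. Between plasma and the OA joint 1 of 4 was called: miR-19b was called higher in plasma on sums of reads (log2 fold 1.28, SE 0.29, edgeR adjusted p = 0.0065; range over 13 settings 0.00303 to 0.81). Its sums were 8132, 11448, 9292 and 9249 CPM in plasma of horses 2, 4, 6 and 8, against 3358, 6216, 6011 and 6359.7 CPM in the OA joint, with no overlap. How many of the 126 features tested there also separated was not counted. The call and the separation rested on the 3 plasma libraries rich in microRNA. Without them the plasma sums were 5692.6, 11448, 1201.8 and 6103.6 CPM, higher than in the OA joint in 2 of 4 horses, and the log2 fold was 0.69 (SE 0.63, edgeR adjusted p = 0.559). The median library held 930.1 CPM in plasma and 5438.4 CPM in OA joint fluid, and with every library at equal weight the log2 fold was -1.37 (limma adjusted p = 0.129). With horse as a block the call was also lost (edgeR adjusted p = 0.0658). The cluster mate miR-92a was at 0.26 in that comparison, and the difference between the folds of the mates was not tested. Between the OA and CTRL joints after time point 0, 0 of 4 neighbours were called, with miR-19b at -1.44 (SE 0.53, edgeR adjusted p = 0.396). The family relative miR-92b stood at -0.61 there (SE 0.73, edgeR adjusted p = 0.945).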

How the data were processed

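Extracellular vesicle small RNA of 78 libraries was analysed: 26 of plasma, 26 of OA joint and 26 of CTRL joint synovial fluid. The labels' protocols name the TriLink CleanTag kit for library preparation. Cutadapt, Bowtie and edgeR are named in the submitters' processing notes, along with the horse build EquCab3.0. Versions, settings, unique molecular identifiers and the treatment of multiply mapped reads are not stated there. Every test used the deposited counts, which are whole numbers of reads per microRNA name. The authors' 2 deposited RPM columns, relative to a library total and to the microRNA sum, gave only library totals (2029244 to 12613572) and a check of the microRNA sum. No 2 libraries held identical values.

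CPM was computed on the sum of the horse microRNA rows. The main test was edgeR 4.0.16 (R 4.3.3), the quasi-likelihood F-test with TMM scaling, filterByExpr at a count minimum of 10 and Benjamini-Hochberg adjustment over all features tested, with a threshold of 0.05. Fluids and joints were compared on counts summed per horse (4 against 4). Time points were compared in 1 fit of 52 synovial libraries and 1 of 26 plasma libraries, where libraries of a horse enter as separate samples, so these p-values partly measure spread within horses. The 2 comparisons of plasma share the plasma samples, and those with the CTRL joint share its samples. Alternatives were RLE or no scaling, no filter, horse as a block, DESeq2 1.42.0 (poscounts size factors), limma 3.58.1 on mean log2 CPM (prior count 2), lane settings, leaving out each horse, the 3 rich plasma libraries (microRNA reads over 5% of the library total) or horse 2 at time point 49. Libraries of a number come from the same horse, so the numbers pair the samples; deviations of same-horse sums from their group means correlated at -0.19 to 0.14. The fits of plasma against the CTRL joint and of the joints after time point 0 were tested on simulated data. So were those of the CTRL joint and of plasma over time. That of the CTRL joint over time called 5.11% of unchanged features (166 were tested, 29 of them changed), and the other fits called 0%. False calls were thus a larger part of its calls than the threshold of 0.05 allows. Of features given a log2 fold of 3 in either direction, 44.4%, 53.6%, 24.1% and 11.1% were called, in the order of the fits. A change of that size was thus often missed.

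The members, neighbours, marker lists and tests were chosen with earlier results of these data known. Named features are the 3 members, their relatives, the 10 cluster neighbours where they pass a test or exceed a mean of 1000 CPM (others by count or reads), and the 3 most like each member by Spearman's rho. Depth limits a value to steps of 1 read, up to 255.4 CPM in the shallowest library; intervals and floors cover counting error only. No reference genome, coordinates or mature sequences were used here.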

Additional observations from a re-analysis of the deposited data

Results flagged for a closer look

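Within groups of 4 horses, 1 value stood far from the other 3 in 17 of 47 groups tested. The rule flags about 1 in 20 groups of normally distributed values. That rate does not hold for skewed CPM values with many at 0, so the 17 cannot be set against it. A group with 3 values at 0 and 1 above 0 is always flagged. Of the 17 flagged groups, 10 concern miR-363, which is at 0 in most libraries. They were 30849 CPM in plasma of horse 8 at time point 35; 12577 CPM (horse 8, time point 0), 13.3 CPM (horse 2, 42), 17.1 CPM (horse 2, 49) and 561.9 CPM (horse 2, 56) in the OA joint; and 62.5 CPM (horse 4, 0), 43.0 CPM (horse 2, 42) and 4295 CPM (horse 2, 49) in the CTRL joint. In reads summed per horse, miR-363 of horse 8 stood out in plasma at 152.2 CPM and that of horse 2 in the CTRL joint at 2097 CPM.

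The other 7 concern miR-25 and miR-92a. Plasma miR-25 of horse 4 at time point 49 was at 24601 CPM, against at most 2881 CPM in the other horses. The OA joint of horse 8 at time point 35 was low in miR-25 at 75.9 CPM, against at least 8824 CPM in the others. In the CTRL joint miR-25 was high in horse 8 at time point 0 (33679.9 CPM), in horse 6 at 35 (85528 CPM) and in horse 2 at 49 (77497 CPM). The last of these libraries was also high in miR-92a at 152917 CPM, against at most 35489 CPM in the other horses. The plasma sum of miR-92a in horse 4 was 46319.5 CPM, against at most 15342 CPM in the other horses.

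Directions that all horses shared were opposite at some time points. For miR-25 every horse was higher in the OA joint at time point 56 (4 horses) and lower at 10 (3 horses). For miR-92a every horse was higher in the OA joint at time point 0 (4 horses), lower at 10 (3 horses) and lower at 42 (4 horses). From time point 0 to 10 miR-92a was lower in plasma and higher in the CTRL joint in every horse with both libraries. These pairs of time points or fluids were not tested on their own. How many of all features had such shared directions was not counted, so those of the members cannot be weighed against the rest. Over all time points the test of a different change in the joints did not pass for either member.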

How the results depend on the processing

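Under the alternatives 464 values were recomputed, 373 of single microRNAs (log2 folds or adjusted p of F-tests) and 91 counts of members called. Of the 373, 324 kept their side of the threshold and, for folds, their sign. Another 25 turned, 13 lost a call and 11 gained one. Of the 91 counts, 74 were judged the same, 7 fell and 10 rose. The counts tally the same calls as the single values, so a call lost or gained can appear in both. Where a value moved, the cause was not tested. Between plasma and the CTRL joint 1 member (miR-25) was called, against 2 with no filter, 0 without the rich plasma libraries, 0 at time point 0 alone, 0 in lane 1 alone, 0 without horse 2 at time point 49 and 0 to 2 when each horse was left out. There miR-25 turned in lane 1 alone (0.51), and miR-92a turned without the rich libraries (0.03) and at time point 0 alone (1.48). Between plasma and the OA joint 0 members were called, against 1 by limma. There miR-25 turned in DESeq2 (0.01) and ranged over -0.70 to 0.17 with each horse left out. The fold of miR-92a turned with no scaling (-0.27), horse as a replicate block (-0.08) and limma (-0.25) and ranged over -0.50 to 0.49 with each horse left out, and miR-363 turned without the rich libraries (1.20). The neighbour miR-19b turned in limma (-1.37) and lost its call with no scaling (0.80), no filter, the replicate block, without the rich libraries, at time point 0 alone, and without horse 2 (1.03) or horse 6 (1.05).

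Between the OA and CTRL joints after time point 0, 0 members were called, against 2 with no filter, 1 with horse as a replicate block and 2 in DESeq2, and miR-25 turned in limma (0.31). At single time points 0 were called, against 1 in DESeq2. There miR-25 turned at time point 0 with no scaling (0.11) and in DESeq2 (0.12) and ranged over -0.10 to 0.44 with each horse left out; over -2.98 to 0.70 at 35, -1.55 to 2.21 at 49 and -0.85 to 0.38 at 63. At 49 it turned in DESeq2 (0.20) and without horse 2 at that time point (2.43), as did miR-92a (0.10), which at 63 ranged over -0.51 to 0.33. Over time in the CTRL joint 0 were called, against 1 with horse as a block and 0 to 1 with each horse left out, and in plasma 0, against 1 with no filter (miR-363, tested only there). The block changed no other call of a member.

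Counts over all features also moved. Between plasma and the CTRL joint 27 were called, against 2 without the rich libraries, 9 without horse 6 and 8 without horse 8. Between the joints after time point 0 it was 0, against 3 with the block, 4 in DESeq2 and 5 with no filter. Over time it was 0 in the OA joint, against 46 with no filter, 0 in the CTRL joint, against 9 with the block, and 10 in plasma, against 1 with RLE, 0 with the block, 0 in DESeq2 and 35 with no filter. At the median depth of plasma 1 read is 71.1 CPM, so lower levels of miR-25 or miR-363 were not detectable in plasma libraries of that depth or less.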
